A study of Mus musculus with 6 samples.

Results

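DNA replication genes were measured by bulk RNA-seq in 6 libraries of mouse intestinal organoids, small cultures of gut epithelium that contain dividing crypt cells and their differentiated progeny. The set holds 37 genes, picked by symbol for their roles in replication licensing, the replication fork and nucleotide supply, among 31227 genes in the count table. All 37 were found and all 37 passed the filter on low counts that left 15503 genes for testing. Both WT libraries came from wild-type organoids without added TGF-β, both Smad4 KO libraries from Smad4-deficient organoids without it, and both Smad4 KO+TGFb libraries from Smad4-deficient organoids that received 0.5 nM TGF-β. Every culture was kept in ENR medium, which carries 50 ng/ml EGF, 100 ng/ml Noggin (an inhibitor of BMP signals) and 500 ng/ml R-spondin1 (which amplifies Wnt signals), and every title carries 48 h. The treatment text leaves 2 readings, 48 h with TGF-β in all or 48 h and then 2 days more. How Smad4 was inactivated, and whether a group's organoids came from 1 line or from separate cultures or animals, is not given in the sources used here. The p-values therefore measure only the spread between these libraries, which may be technical, and a difference between organoid lines cannot be told apart from genotype. Wild-type organoids with TGF-β were not analysed here.

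Replication is prepared in G1 phase, when the origin recognition complex, CDC6 and CDT1 load the MCM2-7 helicase on DNA, and it starts in S phase, when CDC45 and the GINS complex turn that helicase on. Polymerases α, δ and ε then copy the strands with the sliding clamp PCNA, its loader RFC and the single-strand binding complex RPA, while ribonucleotide reductase and its partner enzymes supply deoxynucleotides. Many of these genes are classic targets of E2F transcription factors and are transcribed as cells enter S phase, and in the intestine they mark the dividing cells of the crypt.

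Library totals ran from 40549534 to 50699356 counts, and replicates of a group correlated across genes at 0.9705 to 0.9757 (log2 scale). Smad4, the shared partner of the receptor-activated SMAD proteins, stood at 99.4 and 109 CPM in WT, 21.7 and 23.1 in Smad4 KO and 25.2 and 29.5 with TGF-β. Smad4 KO libraries thus held 4.67-fold less than WT (edgeR adjusted p = 2.72e-05), and what remains does not show whether intact transcript was present. Mitochondrial genes took 3.87% to 4.7% of the counts, with the lowest shares in both treated libraries. Epithelial markers (Epcam, Cdh1, Krt8, Krt18, Krt19 and Cldn7) summed to 6655 and 6757 CPM (counts per 1e+06 counts) in WT, 9259.7 and 9439.5 in Smad4 KO and 13321 and 13436 with TGF-β. The 6 fibroblast markers summed to at most 0.479 CPM, with 4 of them (Col1a2, Col3a1, Dcn and Lum) at 0 in every library. Leukocyte and endothelial markers summed to at most 5.08 and 2.01 CPM, with Adgre1, Cdh5 and Kdr at 0 in every library. Levels below are CPM scaled by the TMM method. A gene is said to be lower or higher where edgeR's quasi-likelihood test, adjusted by the Benjamini-Hochberg method over all 15503 genes, gave an adjusted p under 0.05.

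Because members moved together, the promoters of 6 of them are printed here, from RefSeq windows of 300 bases (250 before and 50 after a transcription start) on GRCm38.p6. They are the 5 members with an E2F-type motif and the smallest adjusted p in Smad4 KO against WT, and Orc1, which holds such a motif and did not pass in any comparison. Sequences run 5′ to 3′ on the strand of the gene, and capitals mark E2F-type motifs, meaning TTCCCGC, the form TTGGCGC or the form TTCGCGC on either strand. Where matches overlap, the capitals run together.

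Pold1, chr7:44548766-44549065, minus strand: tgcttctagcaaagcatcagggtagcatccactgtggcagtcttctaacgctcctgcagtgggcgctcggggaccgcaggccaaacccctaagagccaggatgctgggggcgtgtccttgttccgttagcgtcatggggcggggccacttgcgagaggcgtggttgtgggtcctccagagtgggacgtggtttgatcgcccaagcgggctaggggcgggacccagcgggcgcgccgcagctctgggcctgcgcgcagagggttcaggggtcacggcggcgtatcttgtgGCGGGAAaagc
Mcm7, chr5:138171834-138172133, minus strand: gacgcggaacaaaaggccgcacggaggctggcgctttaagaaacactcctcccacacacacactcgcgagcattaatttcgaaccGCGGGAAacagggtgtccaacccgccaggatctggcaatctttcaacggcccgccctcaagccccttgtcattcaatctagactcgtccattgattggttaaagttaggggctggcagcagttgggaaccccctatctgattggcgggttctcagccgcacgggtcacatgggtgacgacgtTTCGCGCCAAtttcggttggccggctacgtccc
Mcm6, chr1:128359656-128359955, minus strand: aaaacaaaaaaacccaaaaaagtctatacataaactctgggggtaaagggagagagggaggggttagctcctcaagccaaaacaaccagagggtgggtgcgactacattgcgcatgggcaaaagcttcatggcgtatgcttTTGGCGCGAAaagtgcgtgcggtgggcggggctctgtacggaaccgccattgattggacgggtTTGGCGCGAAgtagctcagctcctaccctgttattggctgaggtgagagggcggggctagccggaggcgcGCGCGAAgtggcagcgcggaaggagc
Rrm1, chr7:102441445-102441744, plus strand: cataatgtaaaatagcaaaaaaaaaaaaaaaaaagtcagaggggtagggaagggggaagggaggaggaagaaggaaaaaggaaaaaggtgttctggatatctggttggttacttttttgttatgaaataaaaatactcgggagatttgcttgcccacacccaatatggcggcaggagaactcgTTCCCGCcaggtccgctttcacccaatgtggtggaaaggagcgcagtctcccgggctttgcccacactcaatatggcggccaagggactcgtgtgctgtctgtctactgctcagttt
Mcm3, chr1:20820263-20820562, minus strand: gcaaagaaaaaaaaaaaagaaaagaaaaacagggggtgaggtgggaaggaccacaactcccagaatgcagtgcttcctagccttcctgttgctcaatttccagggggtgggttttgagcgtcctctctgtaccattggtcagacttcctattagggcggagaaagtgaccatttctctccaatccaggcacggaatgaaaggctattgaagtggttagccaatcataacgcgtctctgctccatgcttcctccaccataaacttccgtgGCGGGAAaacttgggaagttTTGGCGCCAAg
Orc1, chr4:108579204-108579503, plus strand: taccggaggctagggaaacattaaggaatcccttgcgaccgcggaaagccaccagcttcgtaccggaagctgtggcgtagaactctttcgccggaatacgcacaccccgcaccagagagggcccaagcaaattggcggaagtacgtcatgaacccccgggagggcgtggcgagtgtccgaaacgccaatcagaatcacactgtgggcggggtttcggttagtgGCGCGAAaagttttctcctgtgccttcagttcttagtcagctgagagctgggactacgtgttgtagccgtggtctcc

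The Mcm6 window held 5 such matches, of which 4 form 2 overlapping pairs, and the Mcm3 window ended on TTGGCGC read on both strands. Promoters were found for 31 members, in 35 windows, since Fen1 and Mcm7 have 2 windows and Lig1 has 3. An E2F-type motif stood in 21 of the 35 windows (60.0%), against 8.07% of all 32851 windows in the table. Windows of these genes were richer in G and C (median 60.0% against 52.7%). Among windows of other genes at or above the members' median, 17.2% of 9672 held such a motif. With 1 more T required at the 5′ end of each motif the shares were 34.3% and 1.84%. The CCAAT box, written CCAAT on either strand, stood in 60.0% of the members' windows and in 37.4% of all windows, and CCAAT can overlap TTGGCGC read on the other strand. The motif of late cell cycle genes known as CHR (TTTGAA or TTCGAA, either strand) stood in 17.1% and 19.2%. These matches describe letters in a window and show no binding.

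**Figure D1:**
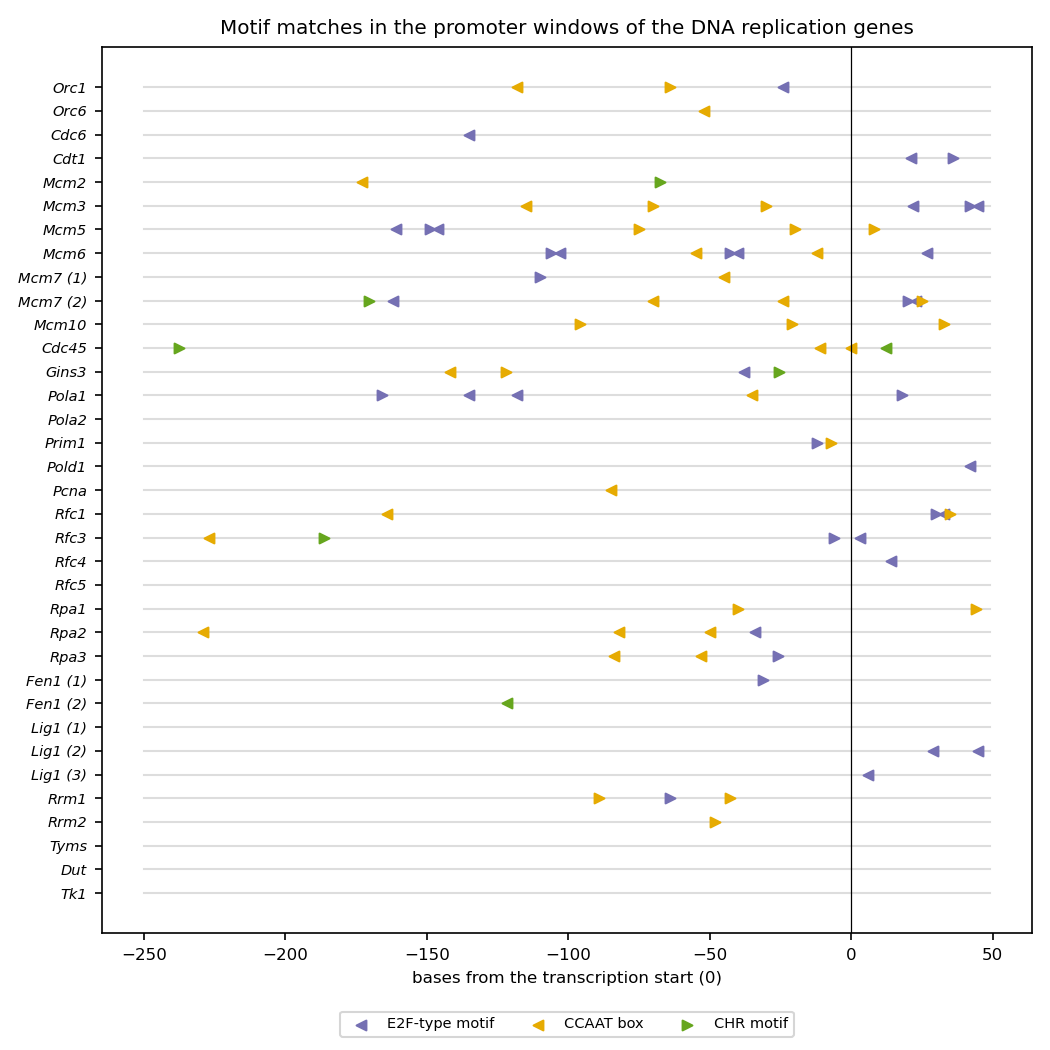
Positions of 3 kinds of motif in the promoter windows of the members, as distance in bases from the transcription start (x axis), with 1 line per window and members in order of role; triangles point right for the strand of the gene and left for the other strand. E2F-type motifs, shown in 21 of 35 windows, lie on both sides of the start, and several windows such as those of Mcm6 and Mcm3 hold more than 1.

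The first comparison set Smad4 KO against WT, without added TGF-β. Replication genes were lower in Smad4 KO as a group: 29 of the 37 fell and 0 rose in edgeR's quasi-likelihood test (DESeq2 likewise gave 29 and 0, and at an unadjusted p under 0.05 edgeR gave 32 and 0). Without WT replicate 1, 19 were lower and 1 (Fen1) was higher. Over all genes tested, 13.4% were lower and 16.9% higher at edgeR's adjusted p, 30.3% in either direction. The share of all genes at the unadjusted p was not counted, for this or any later comparison. Together the members summed to 3669.9 and 3565 CPM in WT, to 2669 and 2678 in Smad4 KO and to 2535 and 2533 with TGF-β. Smad4 KO was 26.1% and Smad4 KO+TGFb 29.9% below the WT mean, with no overlap between the 3 groups. The median log2 fold change of the members in Smad4 KO was -0.46, against -0.02 over all genes tested, and single members ran from -0.94 to 0.16. Changes were of modest size, since 5 members were lower by more than 1.5-fold and 0 by more than 2-fold. In 34 of the 37 members both Smad4 KO libraries lay below both WT libraries, against 34.5% of all genes, and the exceptions were Orc1, Fen1 and Tyms. In bulk RNA, fewer replicating cells and less of these RNAs per cell cannot be told apart.

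**Figure D2:**
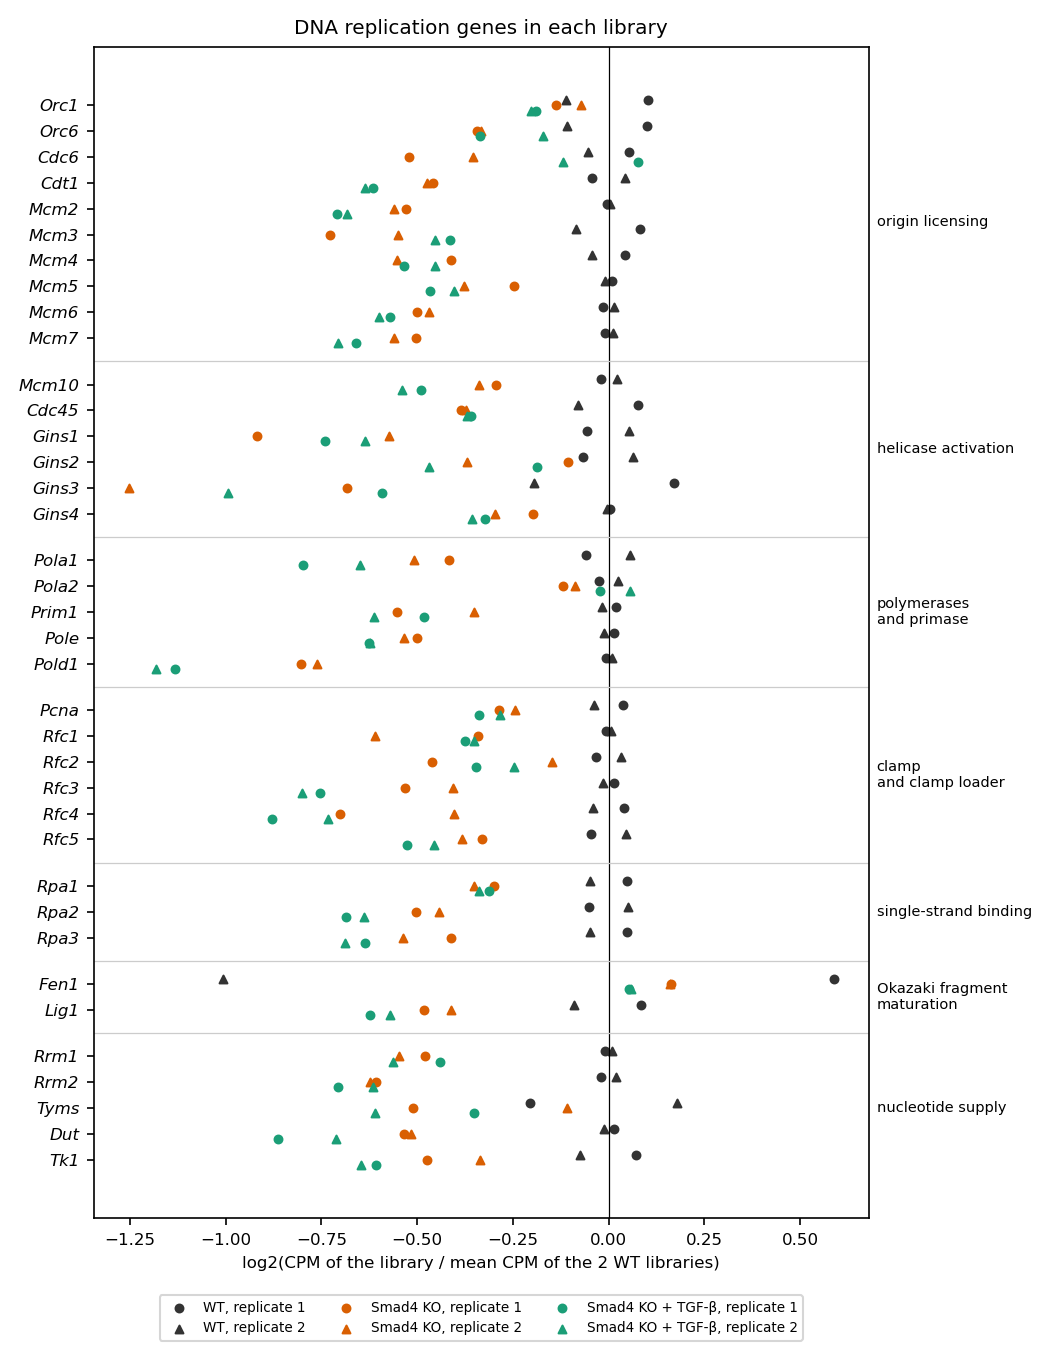
Level of each member in each library, as log2 of its CPM over the mean CPM of both WT libraries (x axis), grouped by role (right). Points of Smad4 KO and of Smad4 KO+TGFb lie left of the WT points for 32 of the 37 members in all 4 libraries (26.8% of all genes tested do so), and Fen1 stands out by the distance between its WT libraries.

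The second comparison set Smad4 KO+TGFb against Smad4 KO. It moved few members: 2 were lower (Pold1 and Rfc3) and 1 was higher (Cdc6), while 8.48% of all genes were lower and 7.78% higher (16.3% in either direction). The members' median log2 fold change was -0.10, against -0.01 over all genes tested. The direction leaned down, with the treated mean below the Smad4 KO mean in 26 of 37 members. By log2 fold change 26 members were negative, as were 7916 of the 15503 genes tested. In 20 members both treated libraries lay below both Smad4 KO libraries (29.1% of all genes do so), and in 4 (Cdc6, Mcm3, Cdc45 and Pola2) both lay above (27.7%). The third comparison, of Smad4 KO+TGFb with WT, shares its libraries with the other two. There 28 members were lower and 0 higher (19.0% and 20.7% of all genes, 39.7% in either direction), with a median log2 fold change of -0.51 against -0.02. The count of 0 higher also held in edgeR at an unadjusted p under 0.05 and in DESeq2 at its adjusted p, and without WT replicate 1 it was 1 (Fen1). In this comparison 16 members were lower by more than 1.5-fold and 1, Pold1, by more than 2-fold. The share of all genes past these fold limits was not counted for either comparison with WT. Lower against WT in both comparisons were 27 members (10.6% of all genes).

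**Figure D3:**
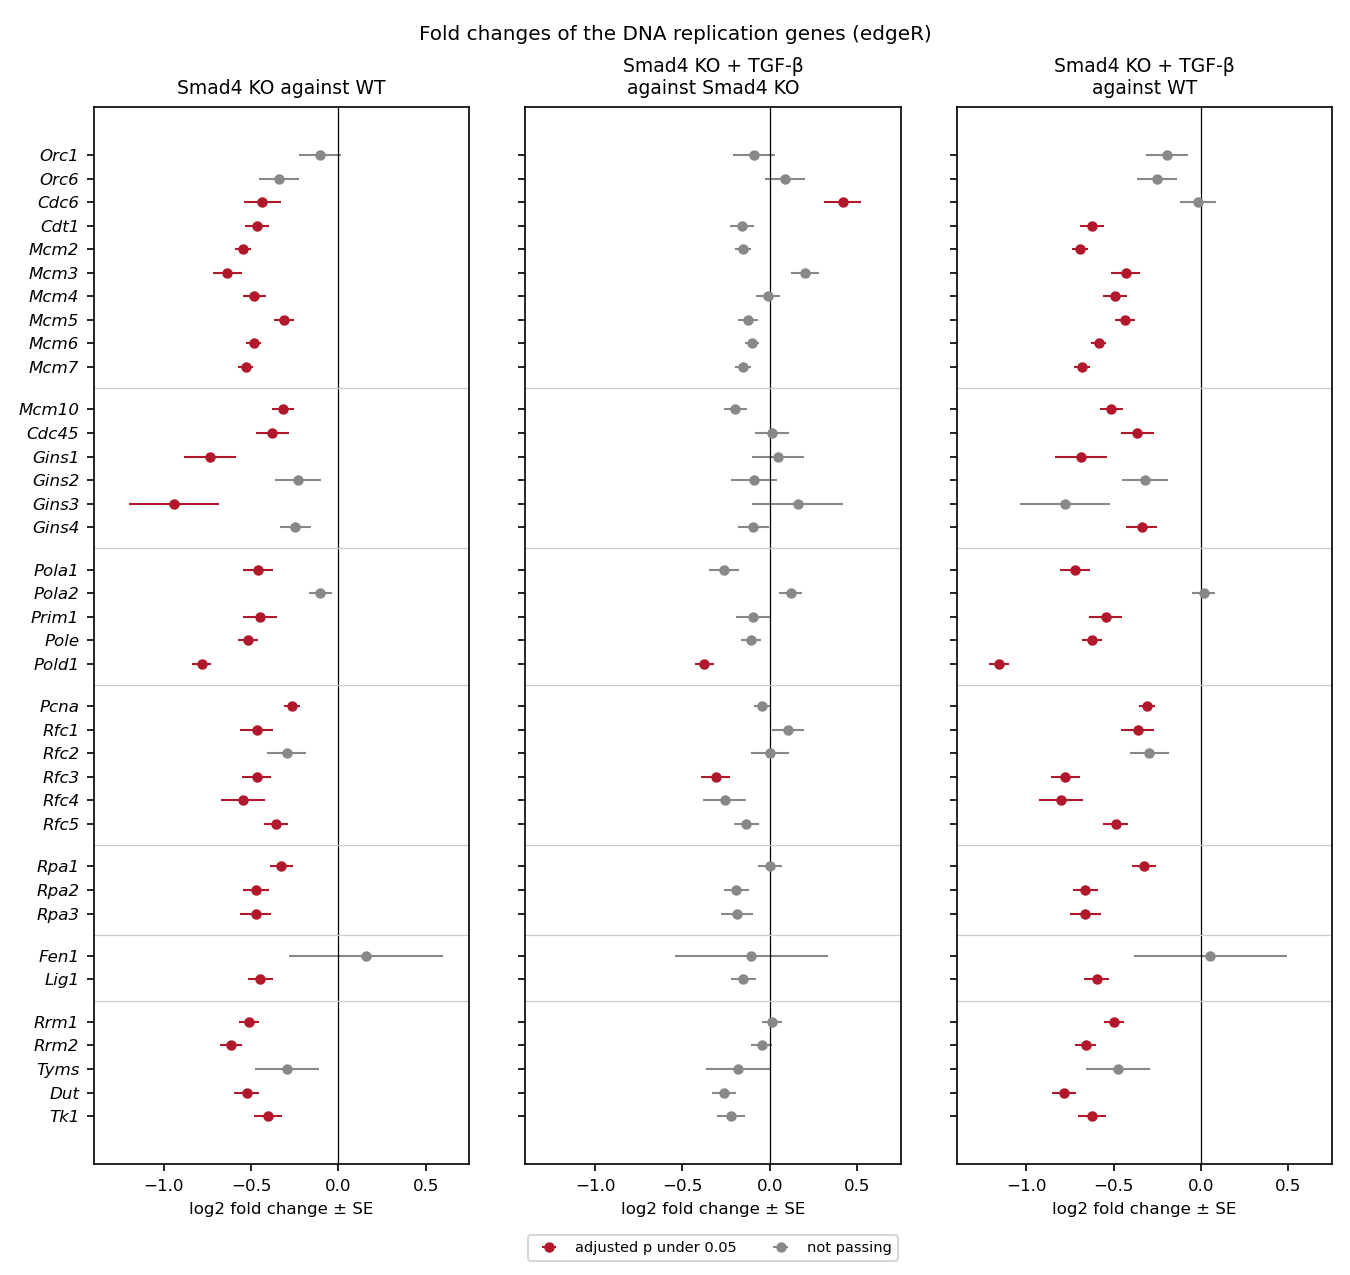
Log2 fold change ± SE (x axis) of each member in the 3 comparisons, from edgeR with 2 libraries per group; red points passed at an adjusted p under 0.05. In both comparisons with WT nearly all points lie left of 0, and between the Smad4-deficient groups 3 points are red.

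Origin licensing genes, 10 in number, were lower in 8 cases in Smad4 KO and in 7 cases with TGF-β against WT, and their summed level was 28.5% and 30.9% below WT. The MCM2-7 helicase, a ring of 6 related subunits, fell in all of its subunits in both comparisons with WT. Mcm2 (ENSMUSG00000002870; GRCm38 chromosome 6, 88883474 to 88898780, minus strand) reached 197 and 198 CPM in WT, 137 and 134 in Smad4 KO and 120.5 and 123 with TGF-β. It was 1.46-fold lower in Smad4 KO (log2 fold change -0.54 ± 0.046 SE, adjusted p = 0.000326) and 1.62-fold lower with TGF-β than in WT (adjusted p = 7.1e-05). Mcm7 stood at 271 and 275 CPM in WT, 193 and 185 in Smad4 KO and 173 and 167 with TGF-β, and was 1.44-fold and 1.61-fold lower in the same comparisons (adjusted p = 0.000317 and 6.64e-05). The WT libraries lie well above the others for both subunits, and treated libraries lie lowest. Mcm7 shares 97.7% identity with Gm5487 over 72.8% of the aligned transcript, so its level is uncertain to the extent that reads were divided. No counted gene carried the symbol Gm5487, nor those of the copies named below for Cdc6, Rfc5, Rrm2 and Tyms. Mcm6 stood at 242 and 246 CPM in WT, 172 and 176 in Smad4 KO and 164 and 161 with TGF-β (1.4-fold lower in Smad4 KO, adjusted p = 0.000393). Mcm4 stood at 175 and 165 CPM in WT, 127 and 116 in Smad4 KO and 117 and 124 with TGF-β (1.4-fold lower, adjusted p = 0.00296), so that its treated and untreated Smad4 KO libraries overlapped. Mcm5 stood at 194 and 192 CPM in WT, 162 and 148 in Smad4 KO and 139.5 and 146 with TGF-β, the smallest change of the ring in Smad4 KO against WT (1.24-fold lower, adjusted p = 0.00928).

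Mcm3 (ENSMUSG00000041859; chromosome 1, 20802968 to 20820312, minus strand) had the largest fold change of the ring in Smad4 KO. It stood at 202 and 179.8 CPM in WT, 115 and 130.4 in Smad4 KO and 143 and 139.5 with TGF-β. It was 1.55-fold lower in Smad4 KO (log2 fold change -0.64 ± 0.082 SE, adjusted p = 0.00197), and its treated libraries lay between those of the other groups. Against Smad4 KO the treated level was 1.15-fold higher, which did not pass (adjusted p = 0.162), and against WT it was 1.35-fold lower (adjusted p = 0.00681). Cdt1, which brings the MCM ring to origins, stood at 62.8 and 66.7 CPM in WT, 47.1 and 46.6 in Smad4 KO and 42.2 and 41.7 with TGF-β. It was 1.38-fold lower in Smad4 KO (adjusted p = 0.00311) and 1.54-fold lower with TGF-β than in WT (adjusted p = 0.000616).

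Cdc6 (ENSMUSG00000017499; chromosome 11, 98907801 to 98923940, plus strand), the ATPase that works with the origin recognition complex in loading, was the 1 member that rose with TGF-β. It stood at 44.5 and 41.3 CPM in WT, 29.9 and 33.5 in Smad4 KO and 45.2 and 39.4 with TGF-β. The Smad4 KO libraries were lowest, and the treated libraries overlapped with WT. Cdc6 was 1.35-fold lower in Smad4 KO (log2 fold change -0.43 ± 0.10 SE, adjusted p = 0.0228) and 1.34-fold higher with TGF-β than in Smad4 KO (log2 fold change 0.42 ± 0.11 SE, adjusted p = 0.0427). Against WT the treated level gave a log2 fold change of -0.02 (adjusted p = 0.912). The rise between the Smad4-deficient groups passed in 7 of 15 alternative analyses and missed the threshold in 8, among them each fit that left out a library. Part of its transcripts (26.2% of the one aligned) is 95.2% identical to Gm9430. Of the origin recognition complex, Orc1 ran from 14 to 17.3 CPM and Orc6 from 20.8 to 28.3 CPM over the 6 libraries, and neither passed in any comparison (lowest adjusted p 0.249 and 0.0684).

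Genes of helicase activation, 6 in number, were lower in 4 cases in each comparison with WT, and their summed level was 22.1% and 26.7% below WT. Mcm10, a scaffold needed for the activated helicase to unwind, stood at 64 and 65.8 CPM in WT, 52.9 and 51.3 in Smad4 KO and 46.2 and 44.7 with TGF-β (1.25-fold lower in Smad4 KO, adjusted p = 0.0124; 1.43-fold lower with TGF-β than in WT, adjusted p = 0.00124). Cdc45, the cofactor that joins the MCM ring to GINS, stood at 29.7 and 26.7 CPM in WT, 21.6 and 21.8 in Smad4 KO and 22 and 21.8 with TGF-β (1.3-fold lower in Smad4 KO, adjusted p = 0.027). Its 4 Smad4-deficient libraries lie close together and below both WT libraries. Of the Cdc45 exon bases 5.96% overlap Ufd1 on the opposite strand. Ufd1 was 1.44-fold higher with TGF-β than in Smad4 KO (edgeR adjusted p = 0.00711), and whether its reads entered the Cdc45 counts is not known.

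The 4 GINS genes encode 1 heterotetramer, and their levels were low and uneven. Gins1 stood at 18.7 and 20.1 CPM in WT, 10.3 and 13 in Smad4 KO and 11.6 and 12.5 with TGF-β. Gins3 (ENSMUSG00000031669; chromosome 8, 95633453 to 95645060, plus strand) stood at 13.8 and 10.7 CPM in WT, 7.61 and 5.13 in Smad4 KO and 8.10 and 6.13 with TGF-β. Gins4 stood at 28.5 and 28.4 CPM in WT, 24.8 and 23.2 in Smad4 KO and 22.7 and 22.3 with TGF-β. Gins1 was 1.66-fold lower in Smad4 KO (adjusted p = 0.012) and 1.61-fold lower with TGF-β than in WT (adjusted p = 0.0118). Gins3 had the largest fold change of all members in Smad4 KO, 1.92-fold lower, with a wide error (log2 fold change -0.94 ± 0.26 SE, adjusted p = 0.0361); with TGF-β it was 1.72-fold below WT with an adjusted p of 0.0531, which missed the threshold, though it passed in 10 of 15 alternative analyses (adjusted p from 0.0128 with the replicate number as a block to 0.229 without WT replicate 1). Gins4 missed in Smad4 KO (adjusted p = 0.0818) and passed with TGF-β against WT (1.27-fold lower, adjusted p = 0.0234). For Gins3 and Gins4 the difference between the 2 comparisons is the comparison of treated with untreated Smad4 KO, which passed for neither (adjusted p = 0.757 and 0.561). Gins2 ran from 34.3 to 49.7 CPM and passed in no comparison; 67.3% of its exon bases overlap Gse1 on the opposite strand, and the strand setting of the counting is not given in the sources used here.

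Polymerase and primase genes, 5 in number, were lower in 4 cases in each comparison with WT. Their summed level was 29.6% and 36.4% below WT. Pold1 (ENSMUSG00000038644; chromosome 7, 44532746 to 44548849, minus strand), the catalytic subunit of the lagging-strand polymerase δ, stood at 127 and 129 CPM in WT, 73.4 and 75.6 in Smad4 KO and 58.4 and 56.5 with TGF-β. The 3 groups do not overlap, and each step is down. Pold1 was 1.72-fold lower in Smad4 KO (log2 fold change -0.78 ± 0.055 SE, adjusted p = 0.00016), 1.3-fold lower with TGF-β than in Smad4 KO (log2 fold change -0.37 ± 0.055 SE, adjusted p = 0.00577) and 2.23-fold lower with TGF-β than in WT (log2 fold change -1.16 ± 0.055 SE, adjusted p = 2.05e-05). It was the 1 member whose call between the Smad4-deficient groups was kept in all 15 alternative analyses.

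Pole, the catalytic subunit of the leading-strand polymerase ε, stood at 93.7 and 92 CPM in WT, 65.7 and 64.1 in Smad4 KO and 60.2 and 60.3 with TGF-β (1.43-fold lower in Smad4 KO, adjusted p = 0.00098). Pola1, the catalytic subunit of the polymerase α that extends primers, stood at 61.7 and 66.7 CPM in WT, 48.1 and 45.1 in Smad4 KO and 36.9 and 41 with TGF-β (1.38-fold lower in Smad4 KO, adjusted p = 0.00853; 1.65-fold lower with TGF-β than in WT, adjusted p = 0.000958). Prim1, the primase that makes the RNA primer, stood at 52.6 and 51.2 CPM in WT, 35.4 and 40.7 in Smad4 KO and 37.2 and 33.9 with TGF-β (1.37-fold lower in Smad4 KO, adjusted p = 0.0144). For all 3 genes every Smad4-deficient library lies below both WT libraries. Pola2, the accessory subunit of the same polymerase α complex, ran from 54.1 to 61 CPM over the 6 libraries and passed in no comparison (log2 fold change -0.10 in Smad4 KO against WT, adjusted p = 0.289).

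Clamp and clamp loader genes, 6 in number, were lower in 5 cases in each comparison with WT, and their summed level was 20.8% and 23.7% below WT. Pcna (ENSMUSG00000027342; chromosome 2, 132249162 to 132253314, minus strand), the sliding clamp, had the highest level of the members per kb of exon, 130 CPM per kb on average in WT. It stood at 320.2 and 304 CPM in WT, 256 and 263 in Smad4 KO and 247 and 257 with TGF-β. Its change was small but clear of the spread, 1.2-fold lower in Smad4 KO (log2 fold change -0.27 ± 0.045 SE, adjusted p = 0.00605) and 1.24-fold lower with TGF-β than in WT (adjusted p = 0.00222). The pseudogene Pcna-ps2, 99.2% identical over 51.4% of a Pcna transcript, ran from 7.73 to 11.1 CPM and passed in no comparison, so reads may be divided between them.

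The loader RFC has a large subunit, Rfc1, and 4 small ones. Rfc1 stood at 95.2 and 96 CPM in WT, 75.5 and 62.7 in Smad4 KO and 73.7 and 74.9 with TGF-β (1.38-fold lower in Smad4 KO, adjusted p = 0.0107). Rfc3 stood at 47.6 and 46.6 CPM in WT, 32.6 and 35.5 in Smad4 KO and 27.9 and 27 with TGF-β. Rfc4 stood at 36.3 and 34.3 CPM in WT, 21.7 and 26.7 in Smad4 KO and 19.2 and 21.2 with TGF-β. Rfc3 was 1.38-fold lower in Smad4 KO (adjusted p = 0.0065) and 1.24-fold lower again with TGF-β (log2 fold change -0.31 ± 0.081 SE, adjusted p = 0.0495), and its groups do not overlap. That second step lies at the threshold and passed in 4 of 15 alternative analyses. Rfc4 was 1.46-fold lower in Smad4 KO (adjusted p = 0.019) and 1.75-fold lower with TGF-β than in WT (adjusted p = 0.00309). Of the Rfc4 exon bases 12.65% overlap Eif4a2 on the opposite strand. Eif4a2 stood at 199 and 210 CPM in WT, 198 and 207 in Smad4 KO and 174 and 172 with TGF-β. How many of its reads entered the Rfc4 counts is not known. Rfc5 stood at 64.2 and 68.3 CPM in WT, 52.7 and 50.8 in Smad4 KO and 46 and 48.4 with TGF-β (1.28-fold lower in Smad4 KO, adjusted p = 0.0108). Part of an Rfc5 transcript (21.2% of the one aligned) is 95.5% identical to Gm12870. Of the Rfc5 exon bases 10.7% overlap Wsb2 on the opposite strand, a gene 1.46-fold higher in Smad4 KO (edgeR adjusted p = 0.00321). Rfc2 ran from 53.8 to 75.7 CPM, with all Smad4-deficient libraries below WT, and missed the threshold in both comparisons with WT (adjusted p = 0.0903 and 0.0762). It passed in 3 and 6 of 15 alternative analyses. With the replicate number as a block, edgeR gave an adjusted p of 0.044 for Smad4 KO+TGFb against WT.

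All 3 RPA genes, whose products coat single-stranded DNA at the fork, were lower in both comparisons with WT. Rpa1 stood at 70.2 and 65.7 CPM in WT, 55.2 and 53.2 in Smad4 KO and 54.7 and 53.7 with TGF-β. Rpa2 stood at 58.6 and 62.9 CPM in WT, 42.9 and 44.7 in Smad4 KO and 37.8 and 39 with TGF-β. Rpa3 stood at 39.8 and 37.3 CPM in WT, 29 and 26.6 in Smad4 KO and 24.8 and 23.9 with TGF-β. In Smad4 KO the 3 were lower by 1.25-fold, 1.39-fold and 1.39-fold (adjusted p = 0.0128, 0.0042 and 0.00925). For Rpa1 the treated libraries fall inside the range of the Smad4 KO libraries, while for Rpa2 and Rpa3 they lie below it without passing (adjusted p = 0.144 and 0.231).

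Okazaki fragments are trimmed by the flap nuclease FEN1 and joined by DNA ligase 1. Lig1 stood at 168 and 149 CPM in WT, 114 and 119 in Smad4 KO and 103 and 107 with TGF-β, 1.36-fold lower in Smad4 KO (adjusted p = 0.00486) and 1.51-fold lower with TGF-β than in WT (adjusted p = 0.000994). Fen1 (ENSMUSG00000024742; chromosome 19, 10199132 to 10204169, minus strand) stood at 89.5 and 29.7 CPM in WT, 66.6 and 66.6 in Smad4 KO and 61.8 and 62 with TGF-β. Its WT libraries lie on either side of the other 4, which agree closely, and it was the only member with a positive log2 fold change in Smad4 KO (0.16 ± 0.44 SE, adjusted p = 0.826). Without WT replicate 1 the log2 fold change was 1.17 (adjusted p = 0.00105), and without WT replicate 2 it was -0.43 (adjusted p = 0.0152). Of its exon bases 84.2% overlap other genes, and 78.8% overlap Gm10143 on the opposite strand. Whether the counting kept reads of this partner apart from those of Fen1 is not known, since its strand setting is not given. No direction is given here for Fen1.

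Nucleotide supply genes, 5 in number, were lower in 4 cases in each comparison with WT, and their summed level was 28.9% and 33.4% below WT. Ribonucleotide reductase converts ribonucleotides to deoxyribonucleotides and is made of the large subunit Rrm1 and the small subunit Rrm2. Rrm1 stood at 239.9 and 243 CPM in WT, 173 and 165 in Smad4 KO and 178 and 163 with TGF-β. Rrm2 (ENSMUSG00000020649; chromosome 12, 24708241 to 24714146, plus strand) stood at 102 and 105 CPM in WT, 68.2 and 67.5 in Smad4 KO and 63.6 and 67.8 with TGF-β. They were 1.43-fold and 1.53-fold lower in Smad4 KO (adjusted p = 0.000995 and 0.000636), and the treated libraries overlap with those of Smad4 KO (log2 fold change 0.01 and -0.05, adjusted p = 0.919 and 0.696). Part of an Rrm2 transcript (19.1% of the one aligned) is 95.5% identical to Gm48455.

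Dut, the dUTPase that keeps uracil out of DNA, stood at 96.5 and 94.7 CPM in WT, 66 and 66.9 in Smad4 KO and 52.6 and 58.3 with TGF-β. Tk1, the cytosolic thymidine kinase of the salvage route, stood at 91.9 and 82.9 CPM in WT, 62.8 and 69.2 in Smad4 KO and 57.4 and 55.9 with TGF-β. Dut was 1.44-fold lower in Smad4 KO (adjusted p = 0.00222) and 1.72-fold lower with TGF-β than in WT (adjusted p = 0.000267), and Tk1 1.32-fold and 1.54-fold lower (adjusted p = 0.0113 and 0.00136). For both the treated libraries lie below Smad4 KO, with an adjusted p of 0.0535 and 0.125. Tyms, the thymidylate synthase, ran from 39.0 to 67.5 CPM, with replicates far apart in each group, and passed in no comparison. Part of a Tyms transcript (17.4% of the one aligned) is 95.6% identical to Tyms-ps.

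**Figure D4:**
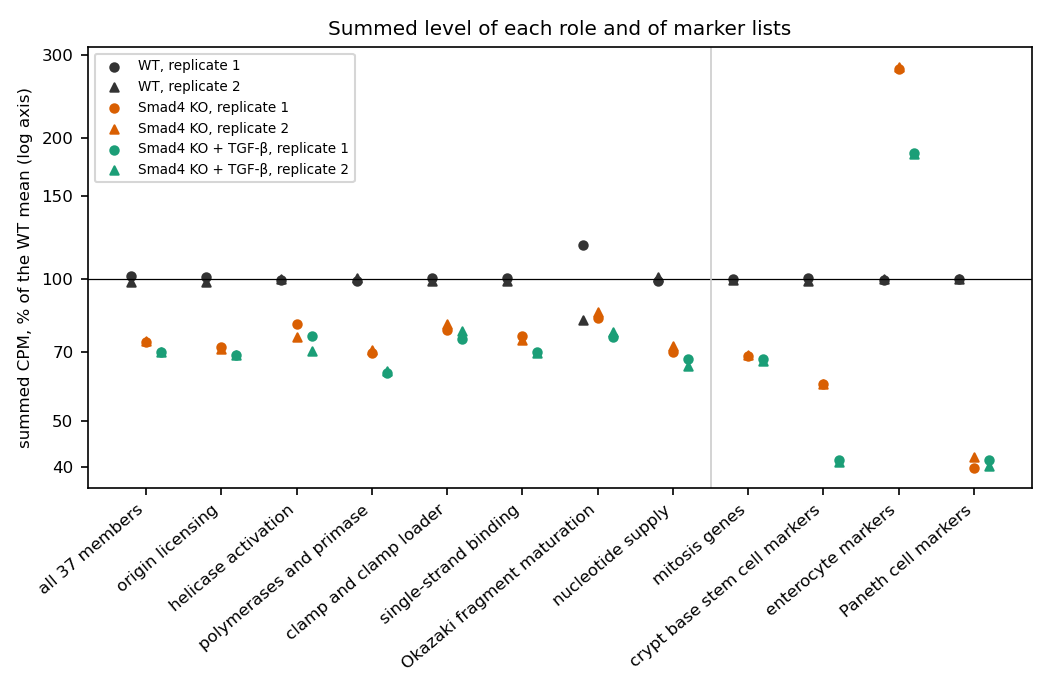
Summed CPM per library for the members by role and for other gene lists, relative to the mean of both WT libraries. By group means the 7 roles lie 16.1% to 29.6% below the WT mean in Smad4 KO and 23.6% to 36.4% below it with TGF-β. The WT pair is far apart for the Okazaki role, which holds Fen1. There WT replicate 2 (178.7 CPM) lies below both Smad4 KO libraries (180.3 and 185.8 CPM). The y axis is a log axis in percent of the WT mean.

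Levels of different genes were compared per kb of merged exon. Per kb, Mcm2 was the lowest of the MCM2-7 subunits and Mcm7 the highest in every library, with Mcm7 2.14 to 2.25 times Mcm2. This order depends on the length used, which joins the exons of all annotated transcripts. That length was 6.956 kb for Mcm2 and 3.589 to 4.666 kb for the other subunits. By CPM alone the WT mean of Mcm2 (197) lay above those of Mcm3 (191), Mcm4 (170) and Mcm5 (193). It lay below those of Mcm6 (244) and Mcm7 (273). Mcm2 and Mcm7 kept their places per kb through the fall in level, since WT averaged 28.3 and 61.7 CPM per kb and Smad4 KO 19.4 and 42.7. By group means Mcm3 changed its place, from 50.9 CPM per kb in WT, above Mcm4 and Mcm5, to 32.8 in Smad4 KO, below both. Single libraries did not all keep this order. In WT replicate 2 Mcm3 (47.93) lay just below Mcm5 (47.97), and in Smad4 KO replicate 2 Mcm3 (34.8) lay above Mcm4 (32.2). Within GINS, Gins4 was 4.17 to 9.08 times Gins3 per kb. Within RPA, Rpa3 was highest and Rpa1 lowest in every library, and among the small RFC subunits Rfc4 was highest in every library. The Rfc4 level may hold reads of Eif4a2, since the strand setting is not given. Across the 37 members the log2 level per kb and the log2 fold change in Smad4 KO had a Pearson r of 0.0019. These are points from the same 6 libraries, and genes are not independent replicates.

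**Figure D5:**
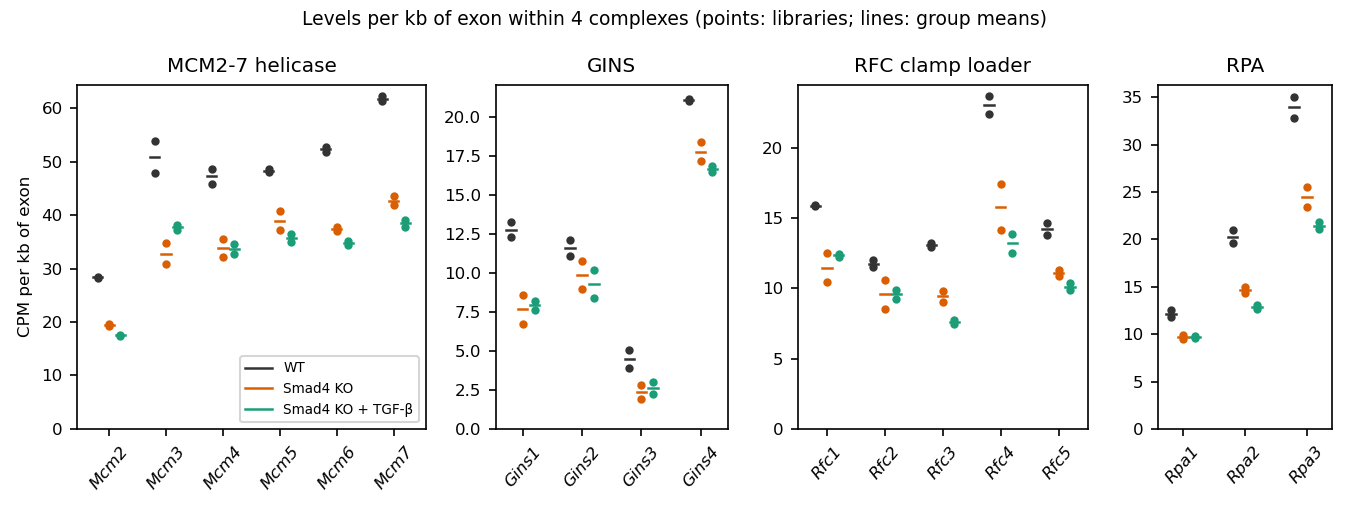
CPM per kb of merged exon for subunits of MCM2-7, GINS, RFC and RPA; points are libraries and lines are group means. Mcm7 lies above Mcm2, Gins4 above Gins3 and Rpa3 above Rpa1 in all 6 libraries. Other subunits change places, such as Gins1, above Gins2 in both WT libraries and below it in the other 4. The place of Gins2 is uncertain, since 67.3% of its exon bases overlap Gse1 on the opposite strand and the strand setting is not given.

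Among the 31 members with a promoter window, 19 held an E2F-type motif and 12 did not. Of the 19, 17 were lower in Smad4 KO (median log2 fold change -0.47) and 15 with TGF-β against WT (median -0.60), and of the 12, 9 and 9 were lower (medians -0.35 and -0.48). Orc1, printed above with 1 motif, did not pass, while Mcm2, Rrm2 and Pcna have no such motif in their windows and were lower. This split was not tested.

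Other genes of replication came from 3 further lists. Of 15 other origin and firing factors, 5 were lower in Smad4 KO and 8 with TGF-β against WT, with 0 higher in either by edgeR, also at an unadjusted p under 0.05, or by DESeq2. Topbp1, which helps load CDC45, stood at 209.9 and 217 CPM in WT, 158 and 165 in Smad4 KO and 144 and 152 with TGF-β (1.32-fold lower in Smad4 KO, adjusted p = 0.0018). Dbf4, the activator of the CDC7 kinase that fires origins, stood at 66 and 69.5 CPM in WT, 46.9 and 47.2 in Smad4 KO and 52 and 51.9 with TGF-β (1.44-fold lower, adjusted p = 0.00157). Ticrr, another firing factor, and Mcm8, an MCM relative that acts in DNA repair, were 1.39-fold and 1.66-fold lower (adjusted p = 0.00942 and 0.00432). Of 10 other nucleotide supply genes, 4 were lower in Smad4 KO and 5 with TGF-β against WT. Dtymk, the thymidylate kinase, stood at 97.5 and 97.7 CPM in WT, 64 and 66.2 in Smad4 KO and 59.9 and 65.2 with TGF-β (1.5-fold lower in Smad4 KO, adjusted p = 0.00113). Shmt1, a folate cycle enzyme, was 1.22-fold lower in Smad4 KO (adjusted p = 0.0232) and 1.27-fold lower again with TGF-β (adjusted p = 0.0187).

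Of 25 other fork and chromatin assembly factors, 15 were lower and 1 higher in Smad4 KO, and 16 lower and 1 higher with TGF-β against WT. Uhrf1, which recruits the maintenance methylase to new DNA, stood at 259 and 254 CPM in WT, 149 and 152 in Smad4 KO and 137 and 133 with TGF-β (1.7-fold lower in Smad4 KO, adjusted p = 6.65e-05). Dnmt1, that methylase, stood at 309 and 314 CPM in WT, 226 and 231 in Smad4 KO and 187 and 198 with TGF-β, lower in Smad4 KO (1.36-fold, adjusted p = 0.000689) and lower again with TGF-β (1.18-fold, adjusted p = 0.0137). Of the 4 subunits of polymerase δ, 3 were lower (Pold1, Pold2 and Pold3) and 1 was higher (Pold4) in Smad4 KO. Pold2, its second subunit, stood at 102 and 96.1 CPM in WT, 71.6 and 68.5 in Smad4 KO and 59.6 and 61.1 with TGF-β (1.41-fold lower in Smad4 KO, adjusted p = 0.00174). Pold3, another accessory subunit, stood at 60.7 and 67.8 CPM in WT, 38.7 and 47.9 in Smad4 KO and 44.8 and 43.2 with TGF-β (1.48-fold lower in Smad4 KO, adjusted p = 0.0125, and 1.46-fold lower with TGF-β than in WT, adjusted p = 0.0109). Pold4 (chromosome 19, 4231899 to 4233634, plus strand), its smallest subunit, stood at 22.7 and 21.7 CPM in WT, 33.2 and 32.6 in Smad4 KO and 50.1 and 47.7 with TGF-β. It was the 1 gene of these 3 lists that rose, 1.48-fold in Smad4 KO (adjusted p = 0.00268), 1.49-fold more with TGF-β (adjusted p = 0.00434) and 2.2-fold with TGF-β against WT (adjusted p = 9.07e-05), in libraries that do not overlap between the groups.

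Regulators of the entry into S phase were mixed. Of 24, 11 were lower and 4 higher in Smad4 KO (E2f2, Tfdp2, Rb1 and Rbl2), and with TGF-β against Smad4 KO 2 were lower (E2f8 and Rb1) and 2 higher. Against WT, the treated libraries had 11 lower and 3 higher (E2f2, Rbl2 and Ccnd1). The 2 that rose with TGF-β over Smad4 KO were the D-type cyclins Ccnd1 and Ccnd2, which activate the kinases that release E2F. Ccnd1 stood at 229.7 and 235 CPM in WT, 203 and 204 in Smad4 KO and 379 and 364 with TGF-β, and was 1.14-fold lower in Smad4 KO (adjusted p = 0.0132), 1.83-fold higher with TGF-β than in Smad4 KO (adjusted p = 6.54e-05) and 1.6-fold higher than in WT (adjusted p = 4.69e-05). Ccnd2 stood at 579 and 569 CPM in WT, 410.5 and 409 in Smad4 KO and 519 and 512 with TGF-β, 1.26-fold higher with TGF-β than in Smad4 KO (adjusted p = 0.00069) and 1.11-fold lower than in WT (adjusted p = 0.00573). Their partner kinases Cdk4 and Cdk6 were 1.28-fold and 1.39-fold lower in Smad4 KO (adjusted p = 0.00236 and 0.000766), with log2 fold changes of -0.11 and 0.11 with TGF-β that did not pass. Ccnd3, the third D-type cyclin, stood at 54.4 and 67.9 CPM in WT, 58.8 and 22.9 in Smad4 KO and 54.6 and 53.9 with TGF-β and passed in no comparison.

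Mitosis genes, which act after replication, were lower in 18 of 20 cases in Smad4 KO and in 19 with TGF-β against WT, and between the Smad4-deficient groups 1, Cdc20, was higher. Their sum was 31.1% and 32.6% below WT, set beside 26.1% and 29.9% for the replication genes. Mki67, the proliferation marker, stood at 603 and 592 CPM in WT, 423 and 410.4 in Smad4 KO and 389 and 386 with TGF-β (1.43-fold lower in Smad4 KO, adjusted p = 8.45e-05), and Top2a, the topoisomerase that untangles sister DNA, at 604 and 594 CPM in WT, 386 and 398 in Smad4 KO and 358 and 372 with TGF-β (1.53-fold lower, adjusted p = 6.3e-05). Ube2c and Cenpf, of mitotic exit and the kinetochore, were 1.61-fold and 1.74-fold lower (adjusted p = 0.00017 and 0.000317).

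Markers of cell types moved between the same groups. Of 10 crypt base stem cell markers 9 were lower in Smad4 KO, and their sum ran from 7389.7 to 7499 CPM in WT, 4458 to 4469 in Smad4 KO and 3045 to 3076 with TGF-β. Of 13 enterocyte markers, which mark absorptive and non-dividing cells, 12 were higher and 1 lower in Smad4 KO, with sums of 4655 to 4690.3 CPM in WT, 13057 to 13193 in Smad4 KO and 8610.4 to 8649 with TGF-β. All 7 Paneth cell markers were lower in Smad4 KO, with sums of 7945 to 7958 CPM in WT and 3168 to 3327 in Smad4 KO. None of these 3 lists had a marker at 0 in every library. Of other epithelial lists, 7 of 8 enteroendocrine markers and 4 of 7 goblet cell markers were lower in Smad4 KO, with 2 goblet cell markers higher. Of 4 tuft cell markers tested 1 was lower. Of 6 markers of regenerative or fetal epithelium 5 were higher and 1 was lower. General epithelial markers were higher in 5 of 6 cases in Smad4 KO and in 6 of 6 with TGF-β against WT, the comparisons in which the replication genes fell. With TGF-β against Smad4 KO, 6 of 10 crypt base, 11 of 13 enterocyte and 7 of 7 goblet cell markers were lower, and 6 of 6 regenerative or fetal and 5 of 6 general epithelial markers were higher. Goblet cell markers summed to 4616 and 4611 CPM in WT, 3795 and 3682 in Smad4 KO and 1926 and 1912 with TGF-β, and regenerative or fetal markers to 84.9 and 96.6, 479.6 and 447, and 2945 and 3021 CPM. The part of these cell types in the levels of the replication genes was not tested.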

How the data were processed

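RNA-seq of 6 mouse organoid libraries was used, 2 per group, grouped by their titles. The values are estimated counts per Ensembl gene that the authors deposited as whole numbers. The submitters' processing notes name HISAT2 2.1.0 and StringTie 1.3.3b, together with FastQC 0.11.9, SAMtools 1.9 and the build GRCm38. Not given in the sources used here are the step to whole numbers, the strand setting and the annotation release. Multiples of 4 made up 42.3% of the values between 1 and 24, so a count is not 1 fragment, and the spread was learned from replicates, without counting intervals. Of 31227 genes, 97 had no symbol and 11742 were at 0 in every library.

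Here, filterByExpr removed low genes, libraries were scaled by TMM, and edgeR 4.0.16's quasi-likelihood test (2-sided, R 4.3.3) was fitted to all 6 libraries, leaving 3 residual degrees of freedom, with Benjamini-Hochberg adjustment over 15503 genes. The SE is the log2 fold change over the root of its F statistic. Gene positions and exon lengths come from a GENCODE annotation of GRCm38, near-identical transcripts from BLAST 2.17.0 (at least 95% identity over 200 bases), and promoters from RefSeq. The test was also run on simulated counts drawn with the fitted spread. These lacked the excess of multiples of 4 seen in the deposited values, and no result here rests on that run. Replicates of a group differed by more than sampling noise (chi-square per degree of freedom 5.19 to 6.17, values divided by 4), and each was counted. Members and lists were chosen with earlier results of these data known. All members could be named, with library values for those that passed in a comparison, and from each other list at most 4 passing genes with the smallest adjusted p. Pold3 and Ccnd3 are also given with levels, outside this rule. The lists' other genes named without a level were chosen after their values were seen. Alternatives were DESeq2 1.42.0, other scalings and filters, values divided by 4, fewer libraries and a replicate block.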

Additional observations from a re-analysis of the deposited data

How the results depend on the processing

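Of the 29 members lower in Smad4 KO than in WT, 29 stayed lower in each of the 9 alternatives other than leaving out 1 library, and 15 in all 15 alternatives. For Smad4 KO+TGFb against WT these numbers were 28 and 23 of 28, and for Smad4 KO+TGFb against Smad4 KO 1 of 3 (Pold1). Leaving out 1 library moved the number of members lower in Smad4 KO to between 19 (without WT replicate 1) and 29, and the number higher to between 0 and 1; that 1 was Fen1, without WT replicate 1. With TGF-β against WT the number higher was also 0 to 1 in these fits, and with TGF-β against Smad4 KO the members were 1 to 1 lower and 0 to 0 higher. Fewer libraries leave less to test on, and the lone library of a group is assumed to vary like the others. Fen1 reversed without WT replicate 2, to a log2 fold change of -0.43 in Smad4 KO against WT and -0.53 with TGF-β against WT (adjusted p = 0.0152 and 0.00511), from 0.16 and 0.05, and without WT replicate 1 these were 1.17 and 1.06 (adjusted p = 0.00105 and 0.000838).

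Between the Smad4-deficient groups, 5 members were lower with DESeq2, and 1 with RLE scaling, with no scaling factor, with no filter on low counts, and with only the 4 libraries compared; in the last, 0 were higher. The cause was not tested. The members' median log2 fold change in Smad4 KO against WT was -0.53 with upper-quartile scaling, -0.55 with no scaling factor and -0.48 to -0.41 without single libraries. With TGF-β against Smad4 KO it was -0.054 with no scaling factor and -0.113 to -0.0902 without single libraries. With TGF-β against WT it was -0.50 with DESeq2 and with RLE scaling, -0.59 with upper-quartile scaling, -0.56 with no scaling factor and -0.57 to -0.51 without single libraries. Over all genes, fits without 1 library called 1166 to 1867 lower in Smad4 KO against WT, and 848 to 1196 lower and 656 to 1108 higher with TGF-β against Smad4 KO. The share of promoter windows with an E2F-type motif fell to 34.3% of the members' and 1.84% of all windows with 1 more T.

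No pairing by the replicate numbers in the titles was seen across all genes: deviations of same-numbered libraries from their group means correlated at 0.00135, 0.0118 and 0.0138. A pairing that touches only part of the genes could be missed by this measure. With the replicate number as a block, the members lower were 29 in Smad4 KO against WT, 1 with TGF-β against Smad4 KO and 30 with TGF-β against WT, and 0 were higher in all 3.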
